A study of Mus musculus with 8 samples.

Results

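The regions described here are intronic stretches of the mouse genome in which all 4 bulk ATAC-seq libraries of formalin-fixed, paraffin-embedded (FFPE) spleen held a peak. They were chosen by the deposited peak calls themselves: peaks of the 4 libraries on chromosomes 1 to 19 were merged where they overlapped by at least 1 bp, and a region was kept when every library had a peak in it, when it stayed clear of the promoters of protein-coding genes (1000 bp before and 200 bp after each transcription start site, TSS), and when its midpoint lay inside a protein-coding gene but in no exon. This left 6431 regions of 58916 merged regions, or 6431 of the 22369 intronic ones. Each library was prepared by ATAC-seq, in which the Tn5 transposase cuts open chromatin and adds sequencing adaptors. The spleens came from C57BL/6J mice aged 8 weeks, were fixed for 16 h and embedded in paraffin, and gave nuclei that were tagmented and then purified with reverse crosslinking (+RV) or without it (−RV). There were 2 bulk libraries per condition, which the study describes as technical replicates, so that p-values measure only the spread between libraries of the same material. Single-nucleus libraries of the same 2 conditions were deposited as 1 pooled set of fragments each and were never used to choose the regions.

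An open stretch inside an intron is often an enhancer, a piece of DNA at which sequence-specific transcription factors gather and from which they act on a promoter that can lie far away. Enhancers are used by fewer cell types than promoters are, and in the spleen many of those known for B and T lymphocytes lie in introns of the genes for lymphoid transcription factors. Other intronic peaks mark alternative promoters, promoters of noncoding RNAs nested in a gene, or sites of the insulator protein CTCF.

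The following stretches of 200 bp, centred on the mean of the 4 peak summits, show what such regions look like in genes that mark different splenic cells. They are the best-ranked members of the B cell, T cell, macrophage, erythroid and transcription factor gene lists described below, except that stretches touching an annotated exon were passed over and that in the macrophage list the better-ranked Cx3cr1 and Csf1r members are not shown, and the last was added because nearly all of its single-nucleus fragments came from 1 class of barcodes. They are given on the plus strand of mm10, 5′ to 3′. Capitals mark the letters of the motifs searched for, and a motif on the minus strand appears as its reverse complement.
Cxcr5 intron, chr9:44515541-44515740: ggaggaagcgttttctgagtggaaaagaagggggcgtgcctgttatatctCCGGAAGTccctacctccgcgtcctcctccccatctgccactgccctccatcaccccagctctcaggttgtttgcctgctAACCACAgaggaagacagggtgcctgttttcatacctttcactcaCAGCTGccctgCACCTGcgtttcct
Lef1 intron, chr3:131208573-131208772: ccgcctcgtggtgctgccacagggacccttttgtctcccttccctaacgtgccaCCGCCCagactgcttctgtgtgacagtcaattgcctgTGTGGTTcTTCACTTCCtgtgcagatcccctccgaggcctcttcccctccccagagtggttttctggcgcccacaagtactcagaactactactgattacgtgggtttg
Sirpa intron, chr2:129595972-129596171: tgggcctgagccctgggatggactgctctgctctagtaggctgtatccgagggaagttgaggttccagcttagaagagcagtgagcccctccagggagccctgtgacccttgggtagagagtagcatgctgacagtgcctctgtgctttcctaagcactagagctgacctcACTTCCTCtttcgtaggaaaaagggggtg
Epb41 intron, chr4:132040348-132040547: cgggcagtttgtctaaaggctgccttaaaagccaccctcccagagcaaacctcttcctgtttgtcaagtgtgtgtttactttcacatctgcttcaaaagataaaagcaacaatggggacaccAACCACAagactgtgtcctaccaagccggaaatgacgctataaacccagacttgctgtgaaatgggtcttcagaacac
Mef2c intron, chr13:83609232-83609431: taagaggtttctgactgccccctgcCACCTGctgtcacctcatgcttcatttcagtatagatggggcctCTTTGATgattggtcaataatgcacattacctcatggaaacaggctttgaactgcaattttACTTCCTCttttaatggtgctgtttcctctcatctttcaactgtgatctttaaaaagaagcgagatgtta
Mgst3 intron, chr1:167384252-167384451: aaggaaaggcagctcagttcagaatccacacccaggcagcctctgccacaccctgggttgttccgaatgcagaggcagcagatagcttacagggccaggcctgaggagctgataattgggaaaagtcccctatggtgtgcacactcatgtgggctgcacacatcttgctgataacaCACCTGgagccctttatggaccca

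Cxcr5 encodes the chemokine receptor that draws B cells into follicles, and its stretch held in this order the letters of ETS, RUNX, an E-box and E2A, each spelled out further below. In the Lef1 stretch, from a gene for a T cell transcription factor, the RUNX letters ended 1 base before a composite ETS-IRF match on the other strand, and the letters of SP/KLF lay before both. Sirpa, a receptor of macrophages that recognises CD47, and Mef2c, a transcription factor of B cells and muscle, both carried the letters of PU.1 on the minus strand. Mef2c also held those of E2A and of TCF/LEF. Epb41, which encodes a protein of the red cell membrane skeleton, held RUNX letters 25 bp from the summit. Mgst3 encodes a microsomal glutathione transferase, and its stretch held the letters of E2A 79 bp from the summit.

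Intronic regions made up 27.9% of the 23022 regions with a peak in all 4 libraries, against 41.7% for regions that touched a promoter window and 28.2% for intergenic ones. A peak in all 4 libraries was the case for 28.7% of intronic regions and 28.9% of intergenic ones, but for 78.7% of promoter regions (9595 of 12192). Most other intronic regions rested on few libraries: 8220 had a peak in 1 library, 4575 in 2 and 3143 in 3. Of these 3143, a −RV library was the one without a peak in 1466 (replicate 1) and 1304 (replicate 2), and a +RV library in 168 (replicate 1) and 205 (replicate 2). The +RV lists held 46676 and 46809 peaks on these chromosomes, against 31459 and 31914 in the −RV lists. Read totals of the bulk libraries were not given in the files, and the depth behind each peak is unknown.

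The regions were narrow. Their median width was 604 bp (quartiles 487 and 777 bp, range 270 to 2178 bp), against 1125 bp for shared promoter regions and 650 bp for shared intergenic regions, and together they covered 4.26 Mb. Near the edge of the rule, 18 members lay within 100 bp of a promoter window and had a median width of 680.5 bp. Just outside it, 22 shared regions with their midpoint in an intron touched such a window by at most 100 bp and had a median width of 646.5 bp. Intronic regions missing from 1 library had median −log10 q values of 6.17 to 9.26 in the libraries that did call them, where q is the false discovery rate that the peak caller gave each peak.

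Within the members, peaks of the +RV libraries were wider and had a higher −log10 q and fold. The median peak width was 506 and 504 bp in the +RV libraries, against 386 and 401 bp in the −RV libraries, a ratio of 1.28 between the means. Median −log10 q was 16.6 in both +RV libraries and 10.7 and 11.5 in the −RV libraries. Median fold over the local background was 4.73 and 4.71 in the +RV libraries and 4.36 and 4.27 in the −RV libraries. For all 3 measures both +RV libraries lay above both −RV libraries. For each of them an exact permutation test over libraries (two-sided) returned p = 0.333, which is as low as 2 libraries per condition can go.

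**Figure D1:**
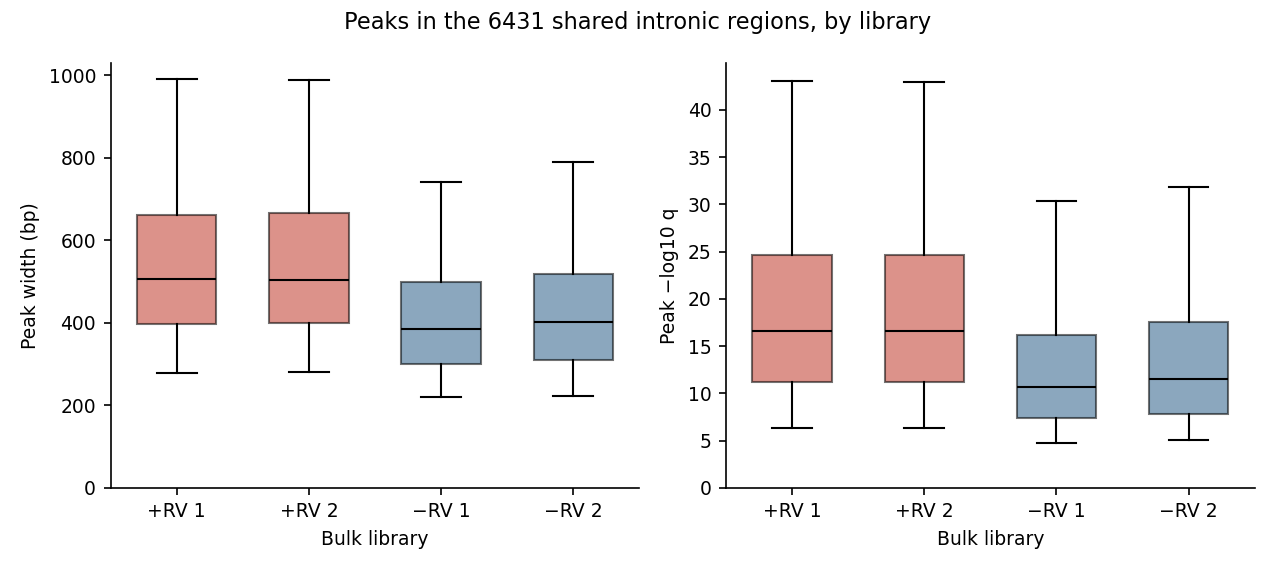
Peak width in bp (left) and −log10 q (right) of the strongest peak in each of the 6431 shared intronic regions, for the 2 +RV and the 2 −RV bulk libraries. Boxes span the quartiles with the median as a line, and whiskers run from the 5th to the 95th percentile; the median width was 506 and 504 bp in the +RV libraries and 386 and 401 bp in the −RV libraries.

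Shared promoter regions were also wider in +RV, with 1009 bp in both +RV libraries, against 713 and 734 bp in the −RV libraries, a ratio of 1.39. Shared intergenic regions had the same ratio of widths as the members to 2 decimals (1.28). The log2 ratio of member width to promoter width was lower in both +RV libraries than in both −RV libraries, by 0.12 on average (+RV minus −RV, −0.12), with an exact permutation p of 0.333, again the lowest possible.

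No single region was called as different between the conditions. Ranks of the fold within each library were compared by limma over all 23022 shared regions, and 0 regions had a Benjamini-Hochberg adjusted p under 0.05 in either direction (0% called), among them 0 of the 6431 members. At an unadjusted p under 0.05 there were 1089 members and 3694 regions in all. No other tool was run on this comparison. With 2 libraries per condition, 0 calls do not show that the regions were alike in both. The median member difference, +RV minus −RV, was −0.05 on the scale of normal scores, against −0.02 over all regions. Since every member had to be called in all 4 libraries, regions lost in 1 condition could not be among them.

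Libraries agreed on where a region peaked. The median distance between the summits of 2 libraries was 47 bp for the +RV pair, 57 bp for the −RV pair and 54 to 56 bp across conditions, and 73.2% to 79.1% of members had summits within 100 bp of each other. Across the 6431 members, which are not independent replicates, Spearman's rank correlation of the fold was 0.82 between the +RV libraries, 0.68 between the −RV libraries and 0.66 to 0.67 across conditions.

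The best-ranked member by −log10 q lay in Mrps27, a gene for a protein of the mitochondrial ribosome, at chr13:99353005-99353784. Its −log10 q was 124 and 110 in the +RV libraries, against 87.5 and 103 in the −RV libraries. The next was in Uggt2, whose product checks the folding of glycoproteins in the endoplasmic reticulum, with 107 and 126 in the +RV libraries and 91.0 and 90.2 in the −RV libraries. Others among the first 10 lay in Chd2 and Chd9, both chromatin remodelling ATPases, and in Tfap2a, Ptdss2, Clec11a, Gm42906, Gm17655 and a stretch shared by Gm28557 and Rslcan18. Apart from these, the 5 widest members lay in Fam149b (2178 bp), Crygn (2046 bp), Setd1b (1968 bp), Art3 (1934 bp) and Mllt10 (1925 bp). None of these genes was on a list of splenic cell markers.

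Some members, more often the strongest ones, touched windows around start sites that the rule did not cover. When windows were drawn around the TSS of every transcript of GENCODE vM21, noncoding genes included, 812 members (12.6%) touched one: 254 touched the window of a noncoding gene and 592 that of a further transcript of a protein-coding gene. In the best-ranked 10% of members this share was 19.3%, and in the last 10% it was 7.15%. It was not counted for other classes of regions. CpG-rich windows, with at least 50% GC and an observed over expected CpG ratio of at least 0.6, made up 11.6% of the best-ranked 10% and 1.56% of the last 10%. Over all members they were 3.81%, against 80.3% at shared promoter summits and 0.28% of intronic windows 5000 bp away.

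Members were found in 3426 of the 19416 protein-coding genes that have introns, which is a background of 17.6%. A single member was the case in 2067 genes, and 698 genes (3.59%) with 3 or more held 49.4% of all members. Hosts were long: they had a median of 55.3 kb of intron, against 12.1 kb in the other genes, and the share of genes with a member went up with intron length, from 3.33% at up to 10 kb over 17.9% and 39.7% to 48.7% above 200 kb. Over all introns there were 7.06 members per Mb. By count the leading gene models were Gm20388 with 47 members and Fgfr2 with 21, both models that span several neighbouring genes, so that a host name says only whose intron holds the region.

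The next hosts by count were single genes of several functions. Prkce, a protein kinase C, held 17 members. Bach2, a repressor that keeps B and T cells from terminal differentiation, held 15, or 4.45 per 100 kb of its intron. Foxp1, a forkhead factor needed for early B cells, Akap13, an anchoring protein of protein kinase A, and Lpp, a protein of focal adhesions, held 14 each. Cblb, a ubiquitin ligase that restrains T cell receptor signalling, and Pde4d, a phosphodiesterase for cyclic AMP, held 13 each. Trio, a guanine nucleotide exchange factor, had 12.

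Gene lists were used to see which programmes the hosts belonged to, and each count is set beside the number given by all genes of the same intron length. The lists were chosen with earlier results of these data known. The counts therefore describe the hosts and are no test. Of 25 lymphoid and B cell transcription factors, 20 had a member, against 8.25 at the share of their length classes, and they held 99 members, against 19.5. Foxp1 and Bach2 led, followed by Ets1, Ebf1 and Ikzf1 with 8 each, of which Ebf1 and Ikzf1 encode factors that set up the B cell and the lymphoid programme. Of 24 genes of antigen receptor signalling, 20 had a member, against 7.24, and they held 63, against 17.5. Inpp5d, the lipid phosphatase SHIP1, held 7, Prkcb, the kinase C of B cell receptor signalling, 6, and Nfatc1, a calcium-driven transcription factor, 5. Of 18 B cell markers 8 had a member, against 3.47, with 27 members, against 7.86; Ebf1 (8), Bank1 (6) and Pax5 (4) held most, and Ebf1 and Pax5 are on both lists.

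Lists of other splenic cells held fewer members in number. T cell markers had a member in 7 of 20 genes, against 4.92, and held 12, against 9.15, with 3 each in Lef1 and Tcf7, the paired TCF/LEF factors of T cells, and 2 in Cd247, a chain of the T cell receptor complex. Erythroid genes had a member in 7 of 18, against 3.29, with 4 in Sptb (spectrin) and 3 in Zfpm1 (a cofactor of GATA1). Macrophage and monocyte genes held 12 members in 6 of 18 genes, against 5.12 members, of which 7 lay in the Cx3cr1 model, which carries 136 kb of intron. Dendritic cell genes held 15 members in 4 of 11 genes, against 3.84 members, led by Tcf4 with 7. Plasma cell genes had a member in 5 of 8, against 1.29, among them Prdm1, the repressor that drives plasma cell formation, with 2. Endothelial genes held 7 members, against 8.85, with 3 in Pecam1 and 2 in Cdh5, both adhesion molecules of endothelial junctions.

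Lists of cells foreign to the spleen differed among themselves. Neuron genes held 5 members in 3 of 14 genes, against 40.3 at the density of equally long genes, with 3 in Map2 and 1 each in Nrxn3 and Gad1. Hepatocyte and pancreatic acinar genes had no member (0 of 10 and 0 of 9 genes, against 1.28 and 0.45). Skeletal muscle genes had one in 2 of 9, against 1.92, and held 4, against 3.78. Housekeeping genes had one in 2 of 14, against 1.196, Actb and B2m. In the remaining lists, a member was found in 1 of 10 NK cell genes (Klrb1c, against 0.479), 1 of 11 neutrophil genes (Mmp9, against 0.804), 1 of 14 stromal genes (Acta2, against 1.85) and 2 of 8 megakaryocyte genes (Vwf and Itga2b, against 1.07). In bulk tissue a region open in few nuclei and one weakly open in many cannot be told apart.

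**Figure D2:**
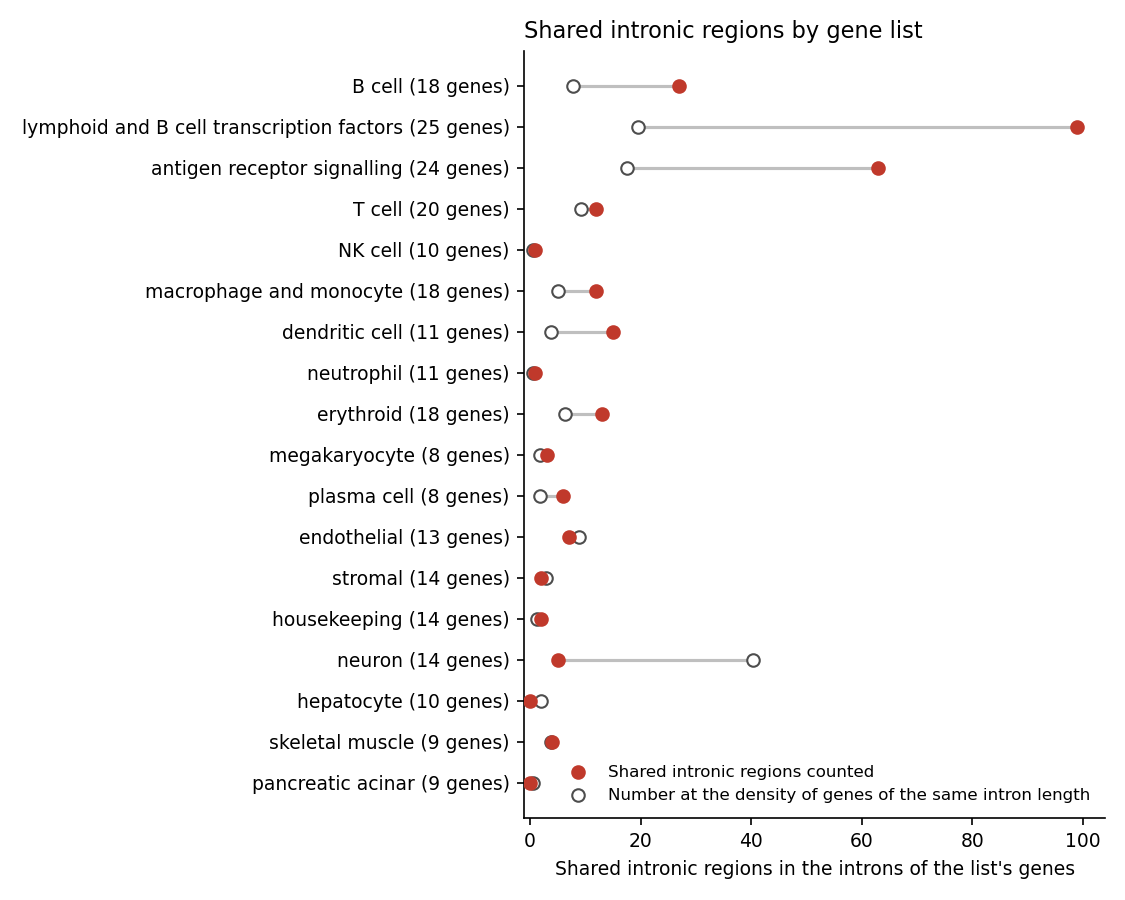
Number of shared intronic regions in the introns of each gene list (filled points) beside the number expected from the density of members in all protein-coding genes of the same class of intron length (open points). Lymphoid transcription factors held 99 against 19.5, and neuron genes 5 against 40.3. The lists were chosen with earlier results of these data known, so the distances are a description.

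The members of these genes differ in strength among themselves. The Cxcr5 region (chr9:44515236-44516123, first intron) had folds of 5.17 and 4.74 in the +RV libraries, against 5.03 and 4.81 in the −RV libraries. The Lef1 region (chr3:131208339-131209056), 95.9 kb from the start of the gene, had 8.105 and 9.64 in the +RV libraries, against 8.01 and 10.1 in the −RV libraries. In both genes the +RV and −RV values overlap. A weaker example was Klrb1c, the NK cell receptor NK1.1, whose region had folds of 3.03 and 3.06 in the +RV libraries, against 3.09 and 3.17 in the −RV libraries, which were both slightly higher.

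In Cx3cr1, the fractalkine receptor of monocytes, the best-ranked region had a −log10 q of 40.6 and 36.5 in the +RV libraries, against 18.3 and 17.7 in the −RV libraries. In Epb41 the folds were 4.51 and 6.19 in the +RV libraries, against 7.81 and 5.47 in the −RV libraries. Cx3cr1 was higher in both +RV libraries and Epb41 overlapped, and neither passed limma's threshold.

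Position within the gene leaned toward the start. First introns held 39.2% of members, against 31.0% of all intronic bases and 37.5% of the intronic regions seen in fewer libraries. The median distance to the host's start was 22.3 kb (quartiles 8.90 and 56.3 kb). Of the hosts, 71.4% had a shared peak in their own promoter window, against 46.8% of the other genes. Another member lay within 5 kb for 1175 members, and 226 members had more than 1 host gene.

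Sequence was independent of the choice of regions. At the summits, windows of 300 bp had a median GC content of 49.3% in members, against 49.0% in shared intergenic regions, 64.3% in shared promoter regions and 44.3% in intronic windows 5000 bp away. Windows at least 50% covered by repeats were 2.44% of members, against 6.48% of the intronic regions seen in fewer libraries and 17.8% of the windows 5000 bp away.

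The letters of 14 motifs were searched on both strands of these windows. PU.1 is an ETS family factor of B cells and myeloid cells, and its letters (GAGGAAGT) were in 13.7% of members (95% exact binomial interval 12.9 to 14.6), against 8.53% of intronic regions in fewer libraries, 1.61% of windows 5000 bp away and 8.38% of all merged regions. This was 8.51 times the share of the windows 5000 bp away, and 53.8% of the matches in members lay within 50 bp of the summit. The ETS letters (CCGGAAGT), which many ETS factors share, were in 1.49% of members, against 0.759% of intronic regions in fewer libraries, 0.128% of windows 5000 bp away, 9.63% of shared promoter regions and 2.44% of all merged regions. PU.1 letters can overlap the composite ETS-IRF letters (GGAANTGAA), which were in 7.82% of members, 3.54% of windows 5000 bp away and 4.92% of all merged regions.

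RUNX factors act in T cells, B cells and blood stem cells, and their letters (TGTGGTT) were in 14.8% of members, against 7.93% of windows 5000 bp away and 9.86% of all merged regions. The octamer of POU factors (ATGCAAAT), bound in B cells by OCT2, was in 3.95% of members, 1.73% of windows 5000 bp away and 2.46% of all merged regions. IRF letters (GAAANNGAA) were in 13.9% of members, 9.37% of windows 5000 bp away and 10.9% of all merged regions. Letters of AP-1 (TGANTCA, 11.9% against 9.07%, all merged 9.94%), E-box (CAGCTG, 22.9% against 12.7%, all merged 20%) and EBF (CCCNNGGGA, 6.28% against 3.72%, all merged 6.48%) were also more frequent in members than in windows 5000 bp away. Relative to all merged regions, these last 3 differed less than PU.1, RUNX and the octamer did.

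GATA, TCF/LEF and E2A letters differed little between members, windows 5000 bp away and all merged regions. GATA letters (AGATAAG) were in 4.71% of members, 4.19% of windows 5000 bp away and 4.44% of all merged regions. TCF/LEF letters (ATCAAAG) were in 4.21% of members, 4.89% of windows 5000 bp away and 3.87% of all merged regions. E2A letters (CAGGTG) were in 22.2%, 19.7% and 20.2%.

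CTCF and SP/KLF letters were more frequent in members than in windows 5000 bp away and less frequent than in all merged regions. CTCF letters (AGNGGGCGC) were in 1.37% of members, against 2.30% of shared intergenic regions, 5.60% of shared promoter regions, 0.28% of windows 5000 bp away and 2.94% of all merged regions. SP/KLF letters (GGGCGG), typical of CpG-rich promoters, were in 13.3% of members, against 71.5% of shared promoter regions, 3.39% of windows 5000 bp away and 22.6% of all merged regions. Members and shared intergenic regions were alike in most letters, and the ratio of their shares lay between 0.595 for CTCF and 1.096 for the E-box. A match is a description of letters, not of a bound factor.

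**Figure D3:**
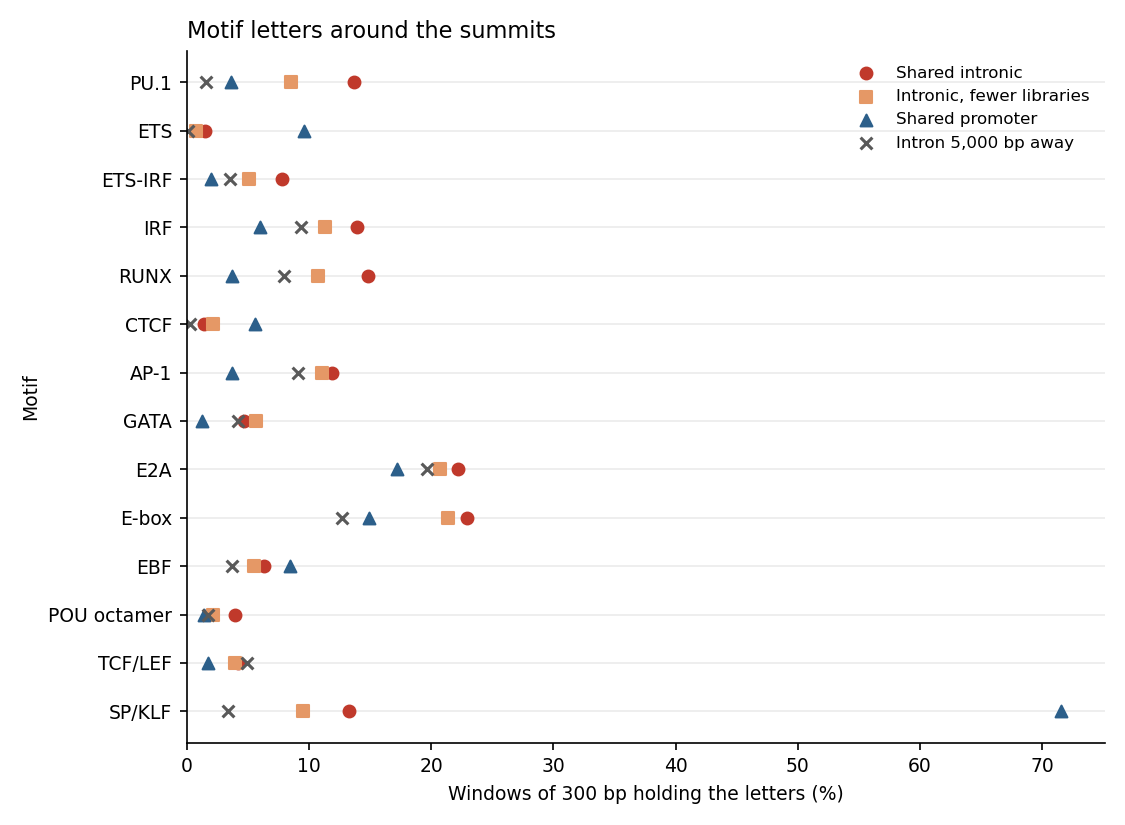
Percentage of 300-bp windows that hold each set of motif letters on either strand, for shared intronic regions, intronic regions in fewer libraries, shared promoter regions and intronic windows 5000 bp away. PU.1 letters were in 13.7% of shared intronic regions and 1.61% of windows 5000 bp away, and SP/KLF letters were in 71.5% of shared promoter regions.

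The pooled single-nucleus fragments gave a readout of the members that had no part in choosing them. Of the nuclear fragments, 2.23% of 13732282 in the +RV set had their midpoint in a member (95% interval 2.22 to 2.24), against 1.90% of 1595630 in the −RV set (1.88 to 1.92). The ratio was 1.17 (exact interval 1.16 to 1.19), and it was 1.18 for shared promoter regions and 1.20 for shared intergenic regions. Among fragments of 50 to 100 bp the ratio for members was 1.01 (0.998 to 1.03), against 0.95 for shared promoter regions (0.944 to 0.956) and 1.02 for shared intergenic regions. With 1 pooled set per condition there is no replicate and no test, and the intervals cover counting error only. Both sets hold barcodes that were already selected, by their labels, on unique fragments and on the fraction of reads near a TSS.

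Coverage stood far above the surrounding intron in both sets. At the summits the density was 7.36 CPM per kb (fragments scaled to a common total per set) in the +RV set and 6.53 in the −RV set, against 0.747 (+RV) and 0.745 (−RV) in windows 5000 bp away. Fragment length differed more: 27.5% of member fragments were longer than the DNA wound on 1 nucleosome core in the +RV set, against 4.62% in the −RV set. Over all nuclear fragments these shares were 20.4% in the +RV set and 2.29% in the −RV set. Long fragments and fragments in members were thus both more frequent in the +RV set.

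**Figure D4:**
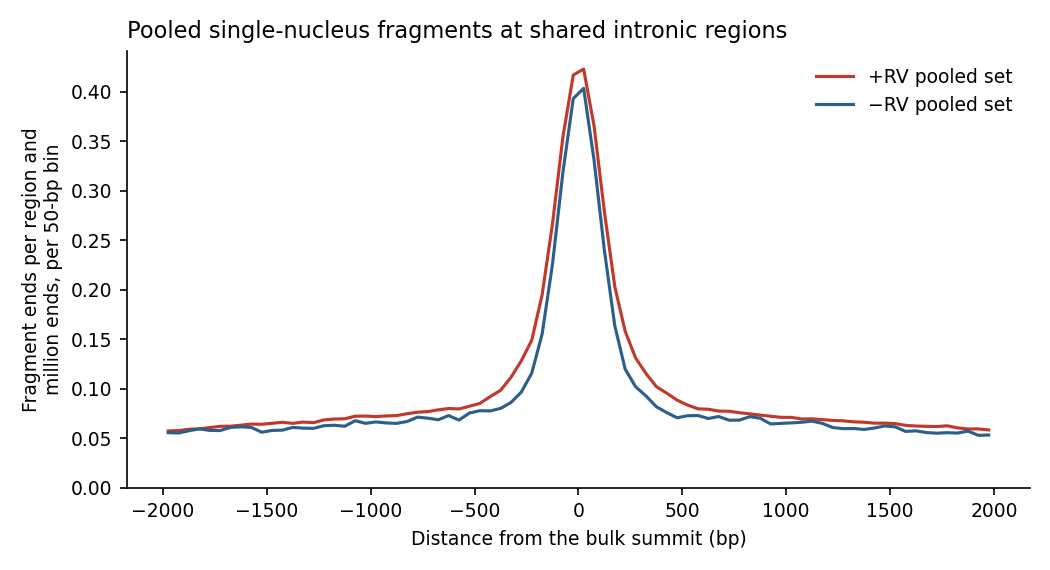
Ends of pooled single-nucleus fragments per region, scaled to a common number of ends, in 50-bp bins against the distance from the bulk summit in bp, averaged over the 6431 shared intronic regions for the +RV set and the −RV set. Both sets peak at the summit, and the +RV profile is the broader one.

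Every member had at least 1 fragment in the +RV set, with a median of 38 and a maximum of 585. In the −RV set 6038 members (93.9%) had one, with a median of 4 and a maximum of 55. Mllt10, a partner in leukaemic gene fusions, held the member with most +RV fragments (42.6 CPM in +RV, 26.3 CPM in −RV). Mrps27 had 14.2 CPM in the +RV set and 16.9 CPM in the −RV set, and Cxcr5 had 8.30 CPM in the +RV set and 3.76 CPM in the −RV set in its best-ranked region, the second value resting on 6 fragments. Across members, Spearman's rank correlation between the 2 sets was 0.69, a description, as depth and region width are shared.

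To see which nuclei used the members, the 18620 barcodes of the +RV set were clustered on 5000-bp bins that touch no member, and clusters were named from fragments in marker genes outside the members. Classes are called after the list whose genes stood out, and 4155 barcodes stayed unnamed. The study filtered and clustered its conventional single-cell data of FFPE spleen in another way and reported that cell types were not resolved. The class names used here differ from that conclusion. By the labels of the deposited sets, barcodes had already been selected on unique fragments and on the fraction of reads near a TSS. Shares in promoter regions are therefore those of selected barcodes. No further filter and no doublet caller was applied, and barcodes had a median of 667 fragments. The 2 T cell-like clusters were also raised in the NK cell list (ratios 2.97 and 1.96, against 3.09 and 1.97 for the T cell list). The macrophage and monocyte-like cluster was raised nearly as much in the neutrophil list (2.19, against 2.38 for its own), as was the B cell-like cluster of the −RV set (2.09, against 2.13). A class of 564 barcodes stood out by pancreatic acinar genes (9 of 9 raised, list ratio 22.6), which do not belong to spleen.

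The share of fragments in members differed between the classes. It was 3.05% in B cell-like barcodes (n = 3599, 95% interval 3.03 to 3.07), 2.88% in T cell-like (n = 2249) and 2.31% in macrophage and monocyte-like ones (n = 1590). It was 1.90% in endothelial-like (n = 1545), 1.60% in erythroid-like (n = 3380), 1.57% in stromal-like (n = 1538) and 1.35% in pancreatic acinar-like barcodes (n = 564, 1.32 to 1.39). Unnamed barcodes had 2.63%. The erythroid-like and stromal-like classes had overlapping intervals and the other named classes did not. These intervals cover counting error only and leave out the spread between barcodes, so they cannot show that classes are separate. Clusters within a class differed too: the 2 B cell-like clusters had 3.13% and 2.88%, without overlap of their intervals. The intervals of the 2 clusters also lay apart in the T cell-like and endothelial-like classes and overlapped in the erythroid-like class. Without the 5% deepest barcodes, clustered anew, the share was 2.998% in B cell-like and 3.09% in T cell-like barcodes, so the order of these 2 classes was not stable. The macrophage and monocyte-like share moved most, to 2.76%. Endothelial-like (1.93%), erythroid-like (1.58%), stromal-like (1.55%) and pancreatic acinar-like shares (1.35%) moved less. The naming moved too: 927 barcodes were B cell-like and 868 T cell-like, and 46.1% stayed unnamed, against 22.3% before. Shares in shared promoter regions had another order: 15.9% in the pancreatic acinar-like class, 15.4% in the endothelial-like class, 14.2% in the T cell-like class, 13.8% in the erythroid-like class, 13.4% in the B cell-like and stromal-like classes and 11.7% in the macrophage and monocyte-like class. B cell-like barcodes had 1.90 times the erythroid-like share in members (1.88 to 1.93), and in the −RV set, clustered on its own, the shares were 2.64% and 1.36%, a ratio of 1.95.

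To compare single regions within 1 range of depth, the shared regions with 100 to 200 fragments in the +RV set were taken, 365 members among 4704 regions. These are among the members with most fragments, and within the range promoter regions were the deepest. In B cell-like barcodes 15.3% of these members were at least 2 times as dense as in all other barcodes, against 1.37% of promoter regions and 16.5% of intergenic regions, with 4.40% over all 4704. For T cell-like barcodes it was 20% of members, 2.37% of promoter regions and 14.6% of intergenic regions, with 5.34% over all. For erythroid-like barcodes 7.12% of members were at least 2 times as dense, against 4.61% of promoter regions and 5.06% over all, and 51.2% of members were at most 0.5 times as dense, against 14.7% of promoter regions and 21.8% over all. On the low side, 4.38% of members were at most 0.5 times as dense in B cell-like barcodes (2.93% over all) and 9.32% in T cell-like ones (5.10% over all). Endothelial-like barcodes had 7.12% of members at least 2 times as dense (6.19% over all) and 110 of the 365 members at most 0.5 times as dense, against 471 of all 4704 regions. Macrophage and monocyte-like barcodes had 5.21% of members at least 2 times as dense (1.49% over all) and 15.9% at most 0.5 times (10.8% over all). For stromal-like barcodes the shares of members were 7.40% (4.34% over all) and 40.8% (15.7% over all), and for pancreatic acinar-like barcodes 7.40% (9.72% over all) and 49.6% (22.0% over all). In every named class both shares of members lay nearer to those of intergenic regions than to those of promoter regions. At most 0.5 times as dense were 36.0% of intergenic and 9.81% of promoter regions in stromal-like barcodes. These shares were 47.8% and 15.2% in pancreatic acinar-like, 22.9% and 5.98% in endothelial-like and 15.4% and 9.51% in macrophage and monocyte-like barcodes.

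For 5 lists, members in marker genes were denser in the class named from those genes. The fragments used to name a class lay outside the members but in the same genes. These ratios are therefore not independent of the naming and describe it further. The 27 members in B cell genes had 3.30 times the density in B cell-like barcodes of that in all others (95% interval 2.89 to 3.76), against 1.43 for all members. The 12 in T cell genes had 3.16 times in T cell-like barcodes (2.57 to 3.86), against 1.3 for all members, and the 7 in endothelial genes 2.59 times in endothelial-like ones (2.00 to 3.31), against 0.81. The 12 in macrophage and monocyte genes had a ratio of 1.99 in their class (1.61 to 2.45), against 1.01. The 13 in erythroid genes had 11.9 in erythroid-like barcodes (10.1 to 14.2), against 0.65 for all members. The 2 in stromal genes had 1.39 in stromal-like barcodes, with an interval of 0.533 to 3.07. Lists that name no class could also differ: the 4 members in skeletal muscle genes had 4.23 in B cell-like barcodes (2.88 to 6.21). In the −RV set the ratios were 3.03 for B cell genes, 2.68 for T cell genes and 8.47 for erythroid genes, but there the T cell-like class was also raised at B cell genes (2.16, 1.35 to 3.41).

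Motif letters separated the classes as well. The 303 members with GATA letters had a ratio of 2.66 in erythroid-like barcodes (2.57 to 2.75), where all members had 0.65, although GATA letters were hardly more frequent in members than elsewhere. In the −RV set this ratio was 2.73 (2.48 to 3.01). The 953 members with RUNX letters had 1.79 in T cell-like barcodes, where all members had 1.3, and the 254 with the octamer had 2.11 in B cell-like barcodes, where all members had 1.43. In the −RV set the octamer members had 1.90 in B cell-like and 1.82 in T cell-like barcodes, so that the classes were closer to each other there. The 881 members with PU.1 letters had 1.69 in B cell-like barcodes, 1.29 in macrophage and monocyte-like barcodes and 0.38 in erythroid-like barcodes, where all members had 1.43, 1.01 and 0.65.

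**Figure D5:**
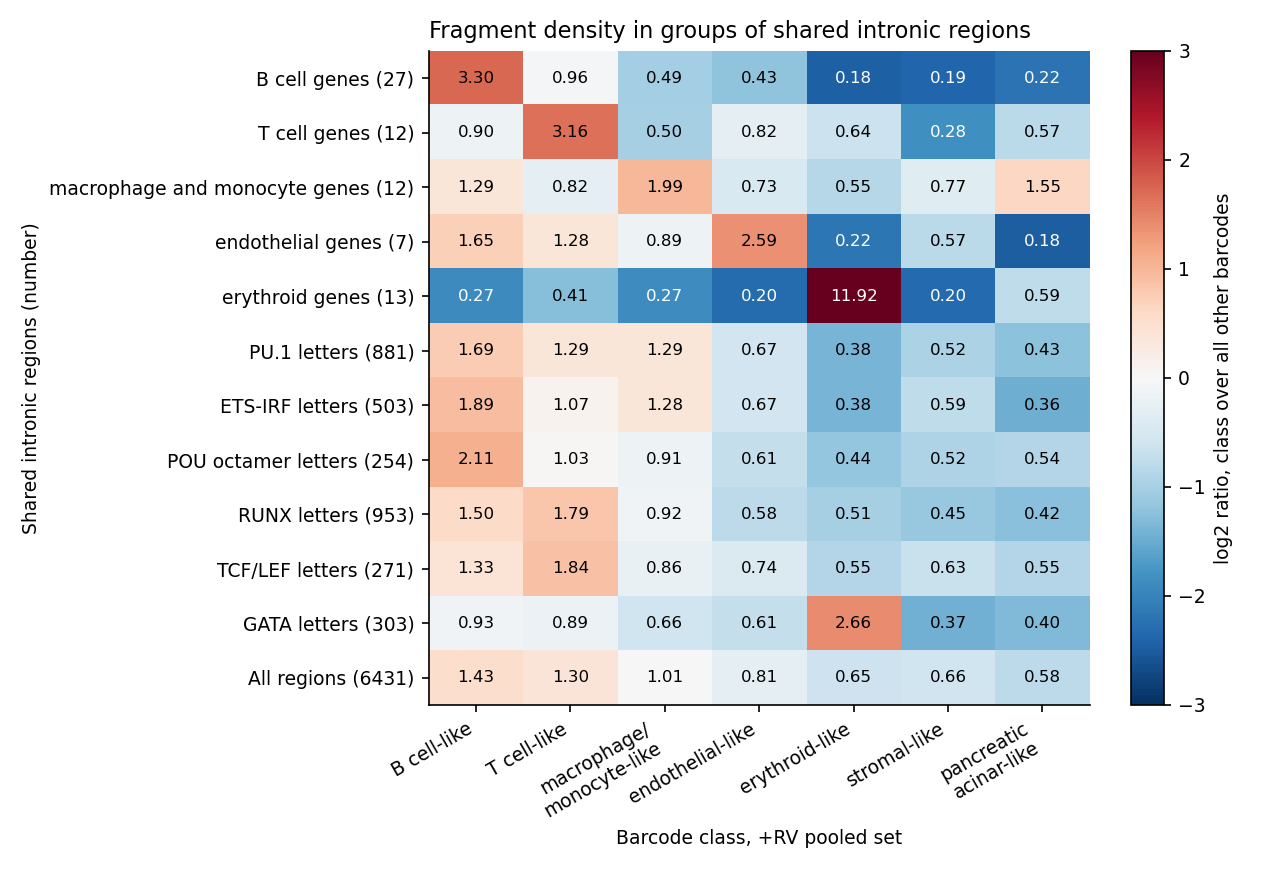
Ratio of fragment density in a barcode class to that in all other +RV barcodes (numbers in the cells; colour is its log2), for shared intronic regions in marker genes, those with motif letters and all of them, with the number of regions in brackets. Erythroid genes (11.9) and GATA letters (2.66) stand out in the erythroid-like class, where all regions together have 0.65.

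The members with the highest ratio in each class can be named, chosen for that ratio among members with at least 20 fragments in the class and therefore given without a test. In erythroid-like barcodes the Mgst3 region printed above had 75 fragments, against 1 in all other barcodes, and in the −RV set 9 against 0. Dennd2c had 42 fragments against 0, B4galnt3 46 against 0 and Golgb1 44 against 0. Against a floor of 3 fragments over all other barcodes these were at least 56.3-fold (Dennd2c), 61.6-fold (B4galnt3) and 58.9-fold (Golgb1) higher, and none of these 4 genes was on the erythroid list.

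In B cell-like barcodes they lay in Cacna1e (ratio 9.53, 95% interval 4.29 to 22.7), Rab30 (9.45), Ebf1 (8.57) and Rftn1 (8.03). Ebf1 is the B cell factor named above, and Rftn1 encodes a lipid raft protein of B cells. In the −RV set the Ebf1 region had 3 fragments in B cell-like barcodes and 7 in all others, too few to compare. In T cell-like barcodes they lay in Lbp (28.9, 14.0 to 65.7), Als2cl (16.3), Slc12a7 (13.4), Rora (12.8) and Ms4a6b (12.5). Rora is a nuclear receptor of helper T cells and innate lymphoid cells, while Lbp encodes a lipopolysaccharide-binding protein known from liver, so that a host's name need not match the class.

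The other classes gave names of their own. In endothelial-like barcodes Sash1 (53.1, 24.4 to 132), Amotl1 (36.0), Strn4 (23.8), Stab2 (23.3) and Tspan9 (15.5) led, and Stab2 is a scavenger receptor of splenic sinus endothelium. In macrophage and monocyte-like barcodes the genes were Dock4 (15.9), Mgat5 (14.7), Insr (12.2), Cadm1 (11.3) and Pla2g4a (9.71). In stromal-like barcodes they were Fam13a (29.5), P3h2 (17.6), Adamts9 (14.4), Sec24d (8.68) and Rfx8 (8.04), of which P3h2 and Sec24d act in collagen modification and its transport. In pancreatic acinar-like barcodes the ratios were lower, from 4.62 (Plpp3) to 6.88 (Slc27a1).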

How the data were processed

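The members and the gene lists were chosen with earlier results of these data known. For each bulk library the authors deposited 1 list of peaks on mm10 in the layout of the MACS2 caller, whose use and the removal of blacklisted regions are described in the study's methods. The deposited score equals 10 times the −log10 q of a peak as a whole number, and the deposited fold is the ratio of pile-up at the summit to the local background. Both −log10 p and −log10 q are the authors' deposited values and compare a peak with its own library, so single regions were compared between libraries by rank. Tools listed in the submitters' notes, without a role, are SEACR 1.3, Picard 1.119, SAMtools 1.15 and Bowtie2 2.4. For single nuclei the authors deposited the start, end and barcode of each fragment, 1 pooled set per condition. Which condition a set belongs to was taken from an abbreviation shared with the bulk lists. The sets held 14747920 (+RV) and 1727885 (−RV) fragments of 18620 and 2406 barcodes, and 2 barcodes occurred in both.

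Genes came from the basic set of GENCODE vM21. A region took the strongest peak of each library. Normal scores of the within-library rank of the fold were compared by limma 3.58.1 (R 4.3.3) with the condition as the only term, over all shared regions and with Benjamini-Hochberg adjustment at 0.05; it was tested on simulated data. Library medians were set against each other by an exact permutation test, two-sided (scipy 1.17.1). Numbers at the density of equally long genes used 4 classes of intron length (borders at 10, 50 and 200 kb). Motifs were searched in 300-bp windows around the mean of the 4 summits, and comparison windows lay 5000 bp to either side in introns outside all merged regions (10124 windows). Fragments were counted by midpoint.

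Barcodes were clustered on 61871 bins of 5000 bp that touched no member and were open in at least 0.2% of barcodes. Counts were weighted by term frequency, reduced to 19 components and clustered by Leiden (leidenalg 0.10.2, 20 neighbours, resolution 1). Marker windows ran from 5000 bp upstream to 500 bp past a gene. A cluster was named when 1 list had a ratio of at least 1.5 to the other barcodes, with at least 3 and more than 0.5 of its markers raised 1.5 times, and no other list had more markers among its 10 leading genes. The limits of this naming were chosen after clusters had been seen. Intervals are exact 95% intervals (binomial for shares, Poisson for ratios).

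Named regions and genes followed a rule: the 10 best-ranked and 5 widest members, the 10 genes with most members, up to 3 genes with most members per list, members past limma's threshold, and the 5 highest ratios per barcode class among members with at least 20 fragments in it. Sequences of the list genes were those of the best-ranked members outside chromosome 18 and touching no exon. Ikzf1 and the Mgst3 sequence fell outside the rule and were chosen after their values were seen. Some regions that the rule selects are not reported here.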

Additional observations from a re-analysis of the deposited data

How the results depend on the processing

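Under stricter peaks, other merging, wider promoter windows, other exons, another annotation or without the long models Gm20388 and Fgfr2 (the last 2 chosen after seeing the data), there were 5454 to 6435 shared intronic regions, and 6599 to 7897 without 1 library. The study's methods describe dividing a tagmented sample between +RV and −RV, and the labels do not say whether replicate numbers follow that division. Libraries of the same number did not deviate together (correlation of deviations −0.01), which does not settle the pairing. With the replicate block limma called 0 members (1064 at an unadjusted p under 0.05), and the width ratio was 1.28. Without 1 library that ratio ran from 1.26 to 1.31. The single-nucleus ratio of +RV to −RV was 1.21 among barcodes with at least 1000 fragments and 1.01 among fragments of 50 to 100 bp. The ratio of B cell-like to erythroid-like barcodes was 1.95 at a clustering resolution of 0.5, 1.95 in the −RV set and, with an alternative chosen after seeing the data, 2.02 for members that touch no TSS window of any transcript. PU.1 letters were 13.9 times as frequent in members as in windows 5000 bp away with 100-bp windows and 7.59 times around region midpoints. The cause of these shifts was not tested. Without the 5% deepest barcodes the order of the B cell-like and T cell-like shares turned (2.998% and 3.09%), and among fragments of 50 to 100 bp the shared promoter ratio was 0.95. Of the other values 86 were classed as unchanged and 41 as moved, among the latter every motif share in 100-bp windows. Shares and ratios were classed by the interval of the main value. Counts of genes and members were classed by a fixed fold and not by an error. Unknown bulk depth and 2 technical replicates per condition limit every +RV and −RV comparison.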
